A study of Mus musculus with 12 samples.

Results

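The 40 genes described here encode antioxidant enzymes and the regulators of their production in the mouse heart. They are the rows of a deposited read count table whose gene symbol is on a list of superoxide dismutases, catalase, glutathione peroxidases, peroxiredoxins, thioredoxins, glutaredoxins, glutathione enzymes, haem oxygenases, metallothioneins and the pair Nfe2l2 and Keap1. All 40 had a row among 23457, and 39 were among the 13050 genes with enough reads to be tested. Glrx3, a cytosolic monothiol glutaredoxin, was the 1 member left out. RNA came from 12 adult mouse hearts of the C57BL/6J strain. The Parkin KO group was 6 floxed mice that carried MerCreMer, a tamoxifen-activated Cre, in which the Parkin gene was deleted in adult life. The noninduced group was 6 floxed mice labelled as having no Cre, a label that 2 of its libraries go against. The labels place both groups 9 to 10 weeks after tamoxifen. Parkin is a ubiquitin ligase that tags damaged mitochondria for removal, and the series compared hearts that had lost it as adults with hearts that had not. By the labels MerCreMer was carried by the Parkin KO group only, and the effects of Parkin loss, of Cre and of the transgene cannot be told apart. The labels do not name the promoter that drives MerCreMer.

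Mitochondrial respiration releases superoxide, which superoxide dismutases turn into hydrogen peroxide. Catalase, glutathione peroxidases and peroxiredoxins then remove the peroxide. Thioredoxin and glutathione, kept reduced with NADPH, recharge the peroxidases and peroxiredoxins. Separate enzymes do this work in the mitochondrial matrix, in the cytosol, and in the endoplasmic reticulum or outside the cell. Nrf2, the product of Nfe2l2, raises transcription of many of these genes through antioxidant response elements, and Keap1 sends Nrf2 for degradation until oxidants modify it.

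Libraries held 11610507 to 16884516 counted reads, so 1 read was worth 0.0548 to 0.0948 CPM, the counts of a gene scaled to the library total. Cardiomyocyte markers (Myh6, Tnnt2, Tnni3, Actc1, Ryr2, Myl2 and Myl3) summed to 76069.5 to 94077 CPM in Parkin KO, against 57038 to 86302 CPM in noninduced libraries, and all 7 were detected in every library. Some libraries stood apart or went against their labels. Esr1, the gene on which MerCreMer reads can be counted, was at 1553 to 4683 CPM in Parkin KO libraries, but the libraries labelled noninduced replicates 1 and 3 held 558 and 962 CPM while the other noninduced libraries had 24.0 to 64.9 CPM. Over 100 Y-linked reads were present in Parkin KO replicates 2, 5 and 6, with Xist at 0.704 to 5.25 CPM, and in noninduced replicate 3, where Xist, the RNA of the inactive X, stood at 77.2 CPM. The remaining 8 libraries had at most 7 such reads and at least 84.2 CPM of Xist. Atrial markers (Myl7, Myl4, Sln and Bmp10) summed to 1428 and 2157 CPM in noninduced replicates 2 and 5, against 3.58 to 79.4 CPM in Parkin KO and 3.43 to 212 CPM in the other noninduced libraries. Reads of genes on mitochondrial DNA made up 5.17% to 9.53% of Parkin KO and 6.65% to 16.7% of noninduced libraries, with 15.97% and 16.7% in noninduced replicates 1 and 2.

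No member passed the test over all genes. edgeR's quasi-likelihood test called 0 of 39 members at an adjusted p under 0.05, where 0% of all 13050 genes were called, and the smallest adjusted p among members, of Txnrd2, was 0.417. DESeq2 called 10 genes (0.0766%) in the whole table and no member. At an unadjusted p under 0.05, 9 members (23.1%) stood out in edgeR, against 11.4% of all genes. Of these, 7 were higher in Parkin KO hearts, where 5.82% of all genes were, and they were Txnrd2, Gstp1, Prdx2, Keap1, Sod1, Prdx4 and Glrx5. The 2 that were lower, where 5.54% of all genes were, were the secreted enzymes Gpx3 and Sod3. The count of 9 depended on single libraries, and the share over all genes moved with it. Leaving out Parkin KO replicate 6 gave 5 (7.20% of all genes) and leaving out noninduced replicate 1 gave 5 (7.40%). Leaving out noninduced replicate 2 gave 4 (7.10% of all genes). Without noninduced replicate 4, 9 members were higher and 3 lower at that p, where 16.3% of all genes were. The count was 2 without noninduced replicates 2 and 5, the libraries rich in atrial markers, where 7.17% of all genes were at that p. The members left were then Txnrd2 and Gstp1.

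The sizes were small. Log2 fold changes (Parkin KO over noninduced) ran from -0.85 for Gpx3 to 0.42 for Glrx5, with a median of 0.11 over members and 0.01 over all genes tested. In all, 27 members (69.2%) lay above 0, where 52% of all genes did. Without the 4 libraries with Y-linked reads the members' median was -0.0071, so the sign of the median changed when they were left out. Without those libraries 48.7% of members lay above 0, where 49.6% of all genes did. With a term for Y-linked reads and every library kept, 64.1% of members lay above 0, where 51.3% of all genes did. The 95% confidence interval lay wholly within 1 log2 unit of 0 for 37 of 39 members, the exceptions being Gpx3 and Mt2, and within a 1.5-fold change either way for 31. No member had groups that did not overlap, which 0.345% of all genes had.

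**Figure D1:**
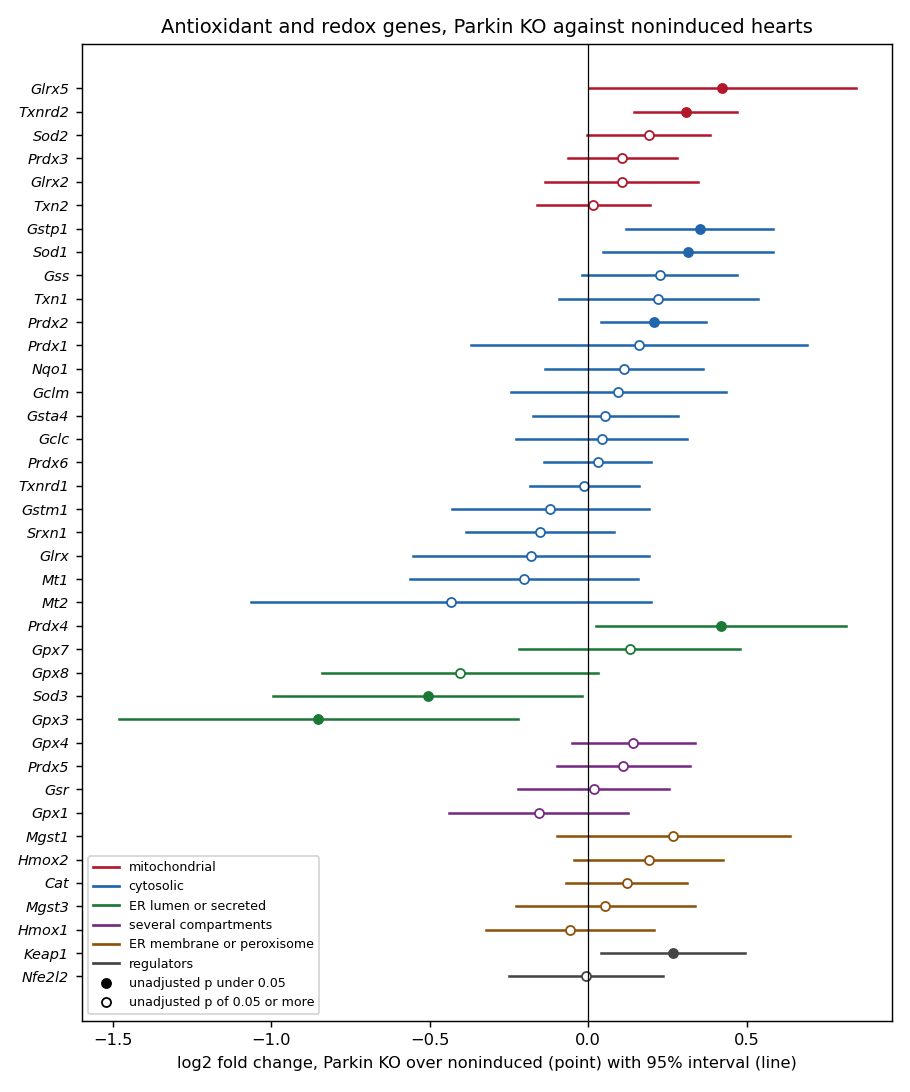
Log2 fold change (Parkin KO over noninduced, horizontal axis) of the 39 tested members, 1 line each, grouped by the place where the enzyme works. Points are edgeR estimates from 6 libraries a group and lines are 95% confidence intervals; filled points mark an unadjusted p under 0.05. The 6 mitochondrial members lie right of 0, and the widest intervals to the left belong to Gpx3, Mt2 and Sod3.

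Levels between genes were compared as FPKM, which accounts for transcript length. Gpx4, the enzyme that reduces lipid hydroperoxides in membranes, was the highest member at 743 ± 64.8 FPKM in Parkin KO and 668 ± 124 FPKM in noninduced hearts (SD, n = 6 each). Mgst3, a microsomal glutathione transferase, averaged 685 ± 67.2 FPKM in Parkin KO and 644 ± 89.5 FPKM in noninduced hearts. Gclc, the catalytic subunit of the first enzyme of glutathione synthesis, had the lowest FPKM, at 3.15 ± 0.541 FPKM in Parkin KO and 3.02 ± 0.50 FPKM in noninduced hearts. The ranges of Gpx4 and Mgst3 overlapped, so their order is not fixed by these libraries. At the low end the order depended on the table: by counts over exon length, Glrx3, Glrx2, Gclm and Gss were below Gclc. It did so higher up as well. Sod1 was above Sod2 by FPKM (357 and 121 over both groups) but below it by counts over exon length (41.4 and 45.5 CPM per kilobase). Summed over the 6 mitochondrial members, the level was 527 ± 29.1 FPKM in Parkin KO and 477 ± 32.0 FPKM in noninduced hearts. The 18 cytosolic members summed to 2125 ± 181 FPKM in Parkin KO and 2080 ± 169 FPKM in noninduced hearts. The 5 members of the endoplasmic reticulum lumen or the outside of the cell summed to 306 ± 66.3 FPKM in Parkin KO and 517 ± 252 FPKM in noninduced hearts, with most of that sum in Gpx3.

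**Figure D2:**
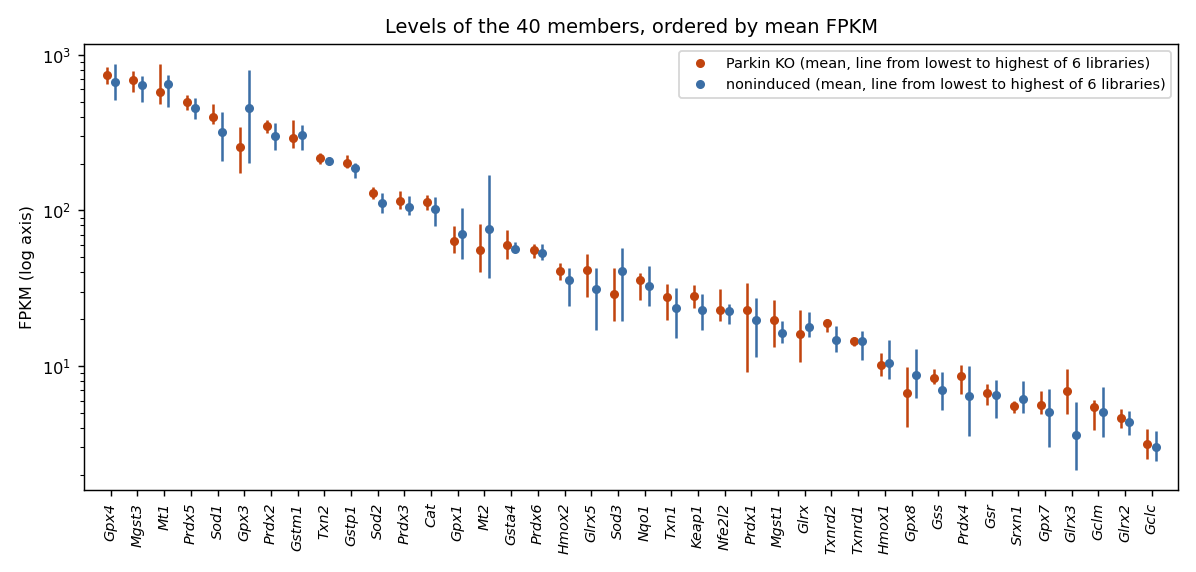
FPKM (vertical log axis) of all 40 members, ordered by their mean over 12 libraries, with the mean of each group as a point and a line from its lowest to its highest of 6 libraries. The Parkin KO and noninduced lines overlap for all 40 genes, and Gpx4 (705 FPKM over both groups) and Gclc (3.08 FPKM) mark the ends.

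In the mitochondrial matrix, all 6 members had estimates above 0, with a median log2 fold change of 0.15. Txnrd2, the thioredoxin reductase of mitochondria (chromosome 16, 18426384 to 18479073 on GRCm38), had the smallest p of all members. Its CPM in Parkin KO replicates 1 to 6 was 29.3, 28.1, 30.7, 30.8, 29.8 and 30.1, against 22.5, 22.8, 23.2, 28.2, 24.9 and 22.8 in noninduced replicates 1 to 6. The groups met in 1 place only, where noninduced replicate 4 stood just above Parkin KO replicate 2, and 5 of 6 Parkin KO libraries exceeded every noninduced one. The log2 fold change was 0.31 ± 0.076 (SE, unadjusted p = 0.00112, edgeR adjusted p = 0.417; DESeq2 adjusted p = 0.0978). Over the 24 alternative settings its estimate stayed between 0.26 and 0.37 and its unadjusted p stayed under 0.05 in all 24.

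Sod2, the manganese superoxide dismutase of the matrix, ranged from 440 to 516 CPM (median 491) in Parkin KO and from 337 to 472 CPM (median 432) in noninduced hearts. Parkin KO replicates 1 and 5 were within the noninduced range, and 4 of 6 Parkin KO libraries were above it; the log2 fold change was 0.19 ± 0.0905 (SE, edgeR adjusted p = 0.438), and 0.12 without noninduced replicate 6. Prdx3, the peroxiredoxin of the matrix and the enzyme that Txn2 and Txnrd2 recharge, ranged from 131 to 169 CPM (median 150.3) in Parkin KO and from 123 to 149 CPM (median 137) in noninduced hearts. Its log2 fold change was 0.11 ± 0.081 (SE, edgeR adjusted p = 0.584), and without the libraries with Y-linked reads it was -0.013. Txn2, the thioredoxin that Txnrd2 reduces, showed almost the same level in both groups, with medians of 243 CPM in Parkin KO, against 239 CPM in noninduced hearts and a log2 fold change of 0.017 ± 0.083 (SE, edgeR adjusted p = 0.942). Glrx5, a glutaredoxin of iron-sulphur cluster assembly, ranged from 22.0 to 38.9 CPM (median 33.7) in Parkin KO and from 14.5 to 30.3 CPM (median 23.5) in noninduced hearts, with 4 of 6 Parkin KO libraries above every noninduced one. Its log2 fold change was 0.42 ± 0.20 (SE, edgeR adjusted p = 0.438), and 0.22 both without noninduced replicates 1 and 3 and without noninduced replicates 1 and 2. Glrx2 had medians of 14.9 CPM in Parkin KO, against 13.8 CPM in noninduced hearts.

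Nuclear-encoded genes of oxidative phosphorylation lay in the same direction as these 6, but not every mitochondrial gene did. Of the mitochondrial genes named below from other lists, Idh2, Msrb2 and Aifm1 were at 0.38, 0.38 and 0.27. Mthfd2 and Maoa were at -1.02 and -0.47. All 16 nuclear-encoded genes of oxidative phosphorylation on a reference list had estimates above 0, with a median of 0.24, and 10 of 16 were higher at an unadjusted p under 0.05, where 5.82% of all genes were. None of them was called by edgeR or DESeq2. Cox4i1, a subunit of cytochrome oxidase, had a log2 fold change of 0.33 and Ndufv1, a subunit of complex I, 0.32. The 7 cardiomyocyte markers were also all above 0, with a median of 0.13. In bulk tissue, more cells of a type and more RNA per cell cannot be told apart. Of the 6 mitochondrial members, Prdx3 was set against the oxidative phosphorylation list across 12 libraries (Pearson's r = 0.45, adjusted permutation p = 0.234; Spearman's rho = 0.44, adjusted permutation p = 0.259, over 5 relations). The r was 0.33 over 10 libraries without the 2 farthest from the median, 0.24 within Parkin KO and 0.29 within noninduced libraries (n = 6 each, no test), and as FPKM it was 0.63 over the 12 libraries (adjusted permutation p = 0.0444). The part of these shifts in the other 5 was not tested.

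**Figure D3:**
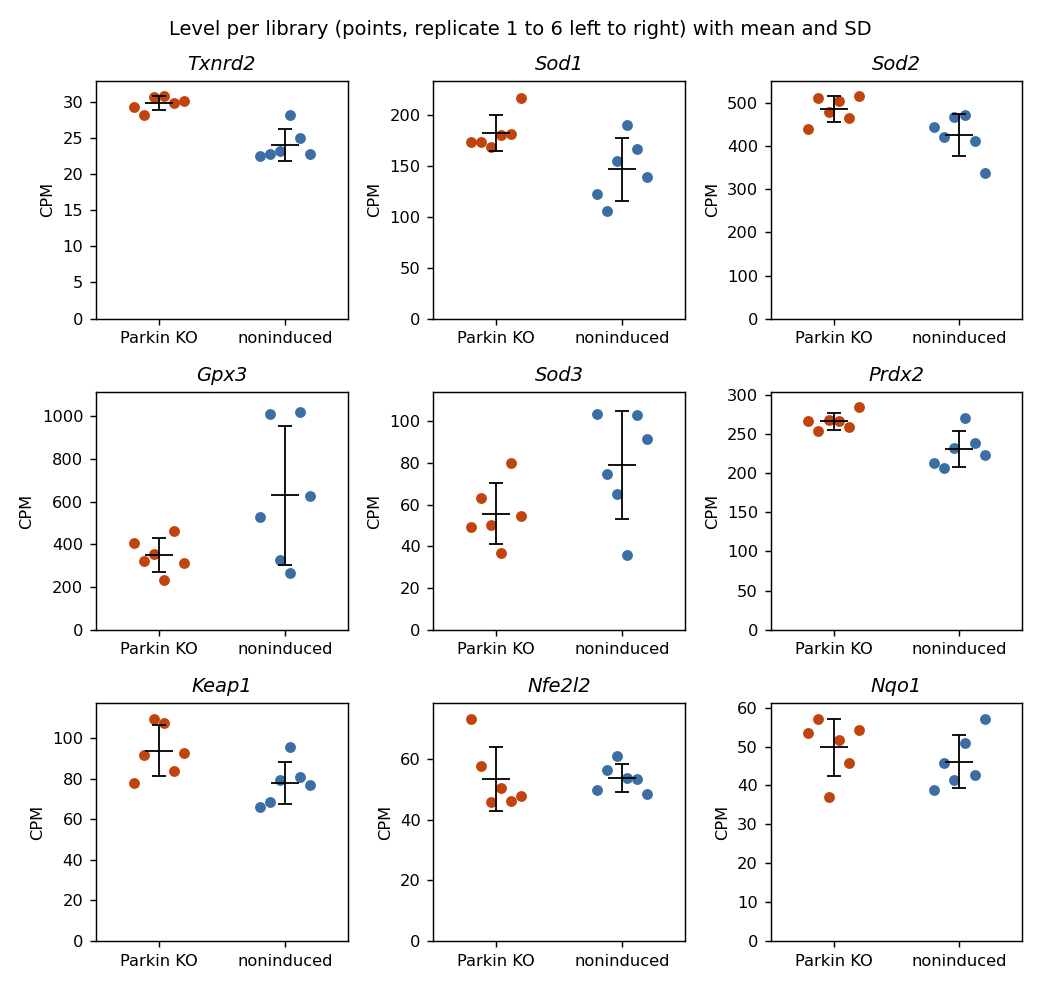
CPM of 9 members in each library (points, replicates 1 to 6 from left to right), with the mean and SD of 6 libraries, Parkin KO left of noninduced; each vertical axis starts at 0. Txnrd2 lies at 28.1 to 30.8 CPM in Parkin KO, against 22.5 to 28.2 CPM in noninduced libraries, while Gpx3 spreads from 267 to 1020 CPM among noninduced libraries.

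Among cytosolic enzymes, 11 of 17 tested members had estimates above 0, with a median of 0.05 that was -0.040 without the libraries with Y-linked reads. Sod1, the copper-zinc superoxide dismutase (chromosome 16, 90220754 to 90226329), ranged from 168 to 217 CPM (median 177) in Parkin KO and from 106 to 191 CPM (median 147) in noninduced hearts. Noninduced replicate 4, at 191 CPM, was above all Parkin KO libraries but replicate 6, and the other 5 noninduced libraries were below every Parkin KO library. The log2 fold change was 0.31 ± 0.13 (SE, edgeR adjusted p = 0.424), and it was 0.15 without noninduced replicates 1 and 2, the libraries with the highest share of mitochondrial DNA reads. Prdx2, a peroxiredoxin abundant in red cells as well as in heart, ranged from 254 to 285 CPM (median 266) in Parkin KO and from 206 to 271 CPM (median 228) in noninduced hearts. Again noninduced replicate 4 was the 1 library of its group inside the Parkin KO range, and the log2 fold change was 0.21 ± 0.077 (SE, edgeR adjusted p = 0.424), or 0.13 without noninduced replicates 1 and 2. Exons of Junb and Rnaseh2a cover 11.5% of its exon bases, and these libraries keep no strand. Of the red cell markers, the 4 globin genes with rows (Hba-a1, Hba-a2, Hbb-b1 and Hbb-b2) were at 0 in every library, and the sum of the rest, 22.2 to 71.4 CPM in Parkin KO libraries and 27.6 to 62.3 CPM in noninduced ones, was mostly Alas2. Across 12 libraries Prdx2 had a Pearson's r of 0.066 with this sum (adjusted permutation p = 0.838) and a Spearman's rho of -0.070 (adjusted permutation p = 0.834). The r was 0.15 over 10 libraries without the 2 farthest from the median, -0.43 within Parkin KO and 0.28 within noninduced libraries (n = 6 each, no test), and a sum resting on 1 gene leaves the share of red cells unmeasured.

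The other cytosolic thiol enzymes gave no such separation. Txnrd1, the cytosolic thioredoxin reductase, had medians of 47.9 CPM in Parkin KO, against 48.5 CPM in noninduced hearts and a log2 fold change of -0.012 ± 0.080 (SE, edgeR adjusted p = 0.959). Txn1, its substrate, ranged from 18.2 to 28.9 CPM in Parkin KO and from 15.0 to 26.1 CPM in noninduced hearts. Prdx1 varied widely, at 11.1 to 39.1 CPM in Parkin KO, against 16.4 to 32.1 CPM in noninduced hearts, and its estimate of 0.16 ± 0.25 (SE) turned to -0.061 without the libraries with Y-linked reads. Prdx6, which also handles phospholipid peroxides, was at 109 to 132 CPM in Parkin KO, against 103 to 130.3 CPM in noninduced hearts. Srxn1, sulfiredoxin, which repairs overoxidized peroxiredoxins, had an estimate of -0.15. Glrx3 had 0 to 6 reads per library, too few to test, although the deposited FPKM table lists it at 2.15 to 9.62 FPKM.

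Ratios between forms of an enzyme that work in different places were compared within each library, as log2 of 1 gene's reads over the other's, for 10 pairs. In 9 pairs a test of the count ratio was possible, and 1 passed. Txnrd2 over Txnrd1, the mitochondrial over the cytosolic thioredoxin reductase, averaged -0.68 ± 0.089 in Parkin KO and -1.0 ± 0.12 in noninduced hearts (log2 count ratio, SD, n = 6 each; difference 0.32, two-sided exact permutation p = 0.00433, which became 0.0390 when adjusted over 9 pairs). As a ratio of FPKM values it was 1.17 to 1.37 (median 1.35) in Parkin KO and 0.930 to 1.12 (median 1.03) in noninduced hearts, with no overlap. The exact permutation p of the FPKM ratio was 0.00216, the smallest that 6 against 6 libraries can give (adjusted p = 0.0216 over 10 pairs). Txnrd2 is also the member of smallest p, so the ratio is not separate from that result. The call was lost without any 1 of Parkin KO replicates 1, 3, 4, 5 and 6 or noninduced replicates 3 and 6 (adjusted exact p = 0.0584 in each case) and without noninduced replicates 1 and 3 (adjusted exact p = 0.0952). It was kept without noninduced replicates 2 and 5 and without noninduced replicates 1 and 2 (adjusted exact p = 0.0429 and 0.0476).

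In the other pairs the mitochondrial and cytosolic forms did not differ past the adjusted threshold when all libraries were kept. Sod2 over Sod1 was 0.293 to 0.362 as an FPKM ratio in Parkin KO and 0.298 to 0.491 in noninduced hearts, and noninduced replicates 1 and 2 made up the high end. Prdx3 over Prdx2 was 0.291 to 0.388 in Parkin KO and 0.305 to 0.427 in noninduced hearts. Txn2 over Txn1 was 6.18 to 10.4 in Parkin KO and 6.19 to 13.7 in noninduced hearts. Among secreted forms, Sod3 over Sod1 was 0.0495 to 0.107 in Parkin KO and 0.0454 to 0.204 in noninduced hearts, with a difference of -0.80 in the log2 count ratio (exact two-sided permutation p = 0.0541, adjusted p = 0.240). Without noninduced replicate 4, which held the lowest ratio of all, the difference was -1.09 (adjusted exact permutation p = 0.0292). Glrx2 over Glrx differed by 0.34 in the log2 count ratio (adjusted exact permutation p = 0.240). Without Parkin KO replicate 2, which held the lowest ratio of its group, the difference was 0.45 (adjusted exact permutation p = 0.0195). No other library left out alone made this pair pass.

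**Figure D4:**
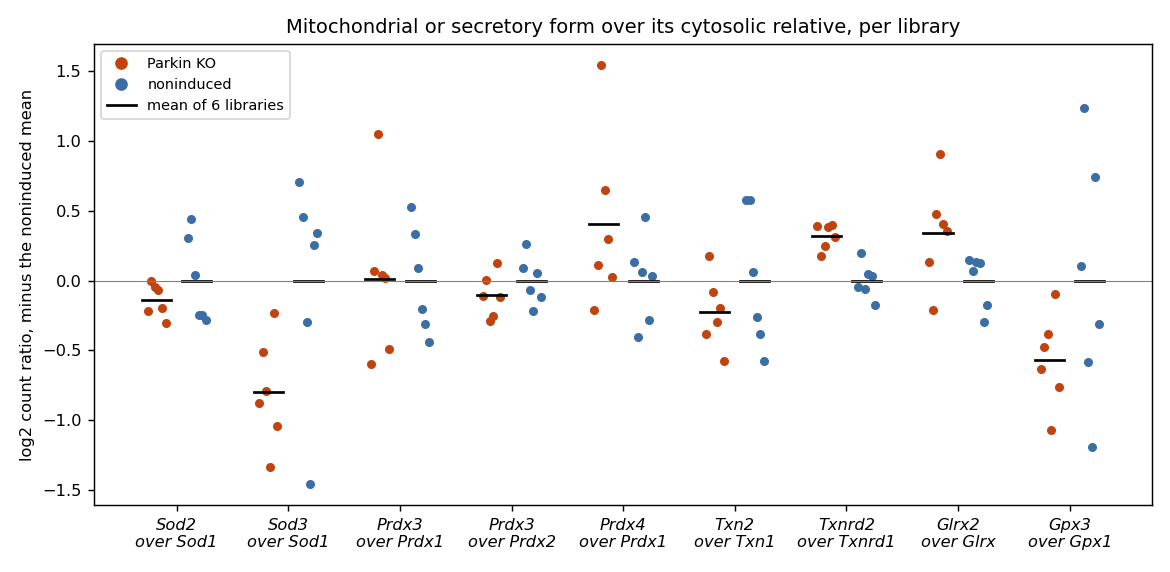
Log2 ratio of reads of a mitochondrial or secretory form over its cytosolic relative in each library (vertical axis, minus the mean of the noninduced libraries), for 9 pairs, Parkin KO left of noninduced, with black lines at group means of 6 libraries. Txnrd2 over Txnrd1 has the tightest groups and a difference of 0.32; Sod3 over Sod1 has a larger difference of -0.80 with 1 noninduced library at the bottom of the range.

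The enzymes that pass through the secretory pathway were the group with a negative median, -0.41 over 5 members, 3 of them below 0. Gpx3 is the glutathione peroxidase secreted into plasma and matrix (chromosome 11, 54902453 to 54910377). Its CPM in Parkin KO replicates 1 to 6 was 406, 322, 356, 235, 461 and 313, against 529, 1008, 326, 267, 1020 and 627 in noninduced replicates 1 to 6. Noninduced replicates 1, 2, 5 and 6 were above every Parkin KO library, and noninduced replicates 3 and 4 were inside the Parkin KO range. The log2 fold change was -0.85 ± 0.30 (SE, edgeR adjusted p = 0.417). The 2 highest libraries, noninduced replicates 2 and 5, were those with atrial markers, and all 4 atrial markers were lower in Parkin KO, with log2 fold changes from -5.39 to -4.18. Without these 2 libraries the log2 fold change of Gpx3 was -0.33 (edgeR adjusted p = 0.698). Noninduced replicate 6 held 627 CPM of Gpx3 with 4.99 CPM of atrial markers.

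**Figure D5:**
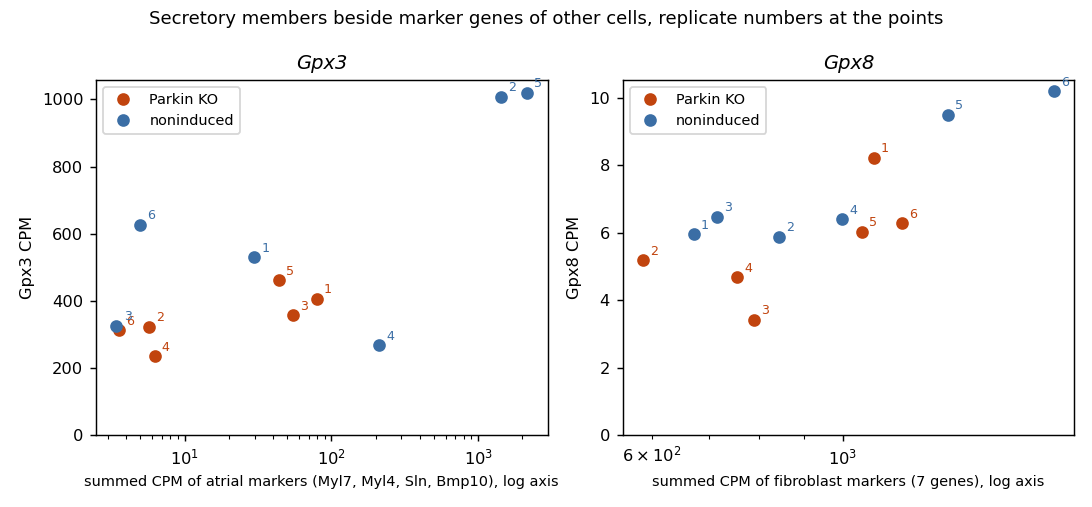
Gpx3 CPM against the summed CPM of 4 atrial markers (left) and Gpx8 CPM against the summed CPM of 7 fibroblast markers (right), 1 point per library with its replicate number; horizontal axes are logarithmic. The noninduced replicates 2 and 5 lie at the top right for Gpx3, and the noninduced replicates 5 and 6 at the top right for Gpx8.

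Sod3, the extracellular superoxide dismutase (chromosome 5, 52363791 to 52371418), ranged from 36.9 to 80.0 CPM (median 52.4) in Parkin KO and from 35.9 to 104 CPM (median 83.2) in noninduced hearts. Every Parkin KO library was below the noninduced median, yet noninduced replicate 4 was the lowest of all 12. The log2 fold change was -0.51 ± 0.23 (SE, edgeR adjusted p = 0.432). It was -0.41 without noninduced replicates 2 and 5 and -0.85 without the libraries with Y-linked reads. Gpx8, a peroxidase anchored in the endoplasmic reticulum, ranged from 3.42 to 8.22 CPM (median 5.60) in Parkin KO and from 5.88 to 10.2 CPM (median 6.43) in noninduced hearts, with a log2 fold change of -0.41 ± 0.20 (SE, edgeR adjusted p = 0.447). Across 12 libraries Gpx8 followed the summed fibroblast markers (Pearson's r = 0.73, adjusted permutation p = 0.0236; Spearman's rho = 0.69, adjusted permutation p = 0.0382, over 5 relations). The r was 0.62 over 10 libraries without the 2 farthest from the median, 0.60 within Parkin KO and 0.92 within noninduced libraries (n = 6 each, no test).

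Matrix and vessel cell markers differed between single libraries. Fibroblast markers (Col1a1, Col1a2, Col3a1, Dcn, Lum, Pdgfra and Postn) summed to 587 to 1169 CPM in Parkin KO, against 671 to 1756 CPM in noninduced hearts, with 5 of 7 lower in Parkin KO. Smooth muscle and pericyte markers summed to 519 to 667 CPM in Parkin KO, against 509.8 to 866 CPM in noninduced hearts, with 5 of 6 lower. Tagln was at -0.67 and Cnn1 at -1.06 (edgeR unadjusted p = 0.0105 and 0.0147), Acta2 at -0.50 and Myh11 at -0.22. The pericyte markers were close to 0, Rgs5 at -0.012 and Pdgfrb at 0.0067. Endothelial markers summed to 930.1 to 1103 CPM in Parkin KO hearts and 884 to 1114 CPM in noninduced hearts. None of these markers passed the adjusted threshold, and their part in the values of Sod3 was not tested. Prdx4, the peroxiredoxin of the endoplasmic reticulum lumen, went the other way within the secretory group: it ranged from 5.55 to 7.94 CPM (median 7.0) in Parkin KO and from 3.13 to 7.72 CPM (median 4.97) in noninduced hearts, with a log2 fold change of 0.42 ± 0.19 (SE, edgeR adjusted p = 0.428), which was 0.20 without noninduced replicates 1 and 2. Only noninduced replicates 4 and 6 reached the Parkin KO range of Prdx4. Gpx7, also of the lumen, was at 5.37 to 7.16 CPM in Parkin KO, against 3.51 to 6.96 CPM in noninduced hearts.

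Enzymes with forms in several compartments, and those of peroxisomes and membranes, had intervals that spanned 0. Gpx1, the glutathione peroxidase of cytosol and mitochondria, ranged from 49.0 to 68.8 CPM (median 54.0) in Parkin KO and from 46.7 to 84.9 CPM (median 60.2) in noninduced hearts, with a log2 fold change of -0.16 ± 0.13 (SE, edgeR adjusted p = 0.622), which was -0.054 without noninduced replicate 6 and -0.30 without noninduced replicates 1 and 2. Gpx4 ranged from 521 to 626 CPM (median 555) in Parkin KO and from 432 to 614 CPM (median 505) in noninduced hearts, and 5 of 6 noninduced libraries were below every Parkin KO library; the exception was replicate 6. Its log2 fold change was 0.14 ± 0.091 (SE, edgeR adjusted p = 0.526). Catalase (Cat), the peroxisomal enzyme that splits hydrogen peroxide, ranged from 243 to 320.1 CPM (median 272) in Parkin KO and from 213 to 279 CPM (median 251) in noninduced hearts, with a log2 fold change of 0.12 ± 0.0895 (SE, edgeR adjusted p = 0.576). Prdx5 had medians of 250 CPM in Parkin KO, against 249 CPM in noninduced hearts, and 19.1% of its exon bases are shared with Trmt112. Hmox2, the constitutive haem oxygenase, had an estimate of 0.19, with 40.2% of its exon bases overlapped by Cdip1.

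Glutathione synthesis and use showed small differences. Gclc ranged from 8.30 to 13.8 CPM (median 10.4) in Parkin KO and from 9.04 to 11.9 CPM (median 10.2) in noninduced hearts, with a log2 fold change of 0.043 ± 0.13 (SE, edgeR adjusted p = 0.900), and its partner subunit Gclm had 0.10 ± 0.16 (SE). Gss, which completes glutathione, had 0.23 ± 0.11 (SE), and Gsr, which recycles it, had 0.017 ± 0.11 (SE). Gstp1, a glutathione transferase of the pi class (chromosome 19, 4035407 to 4037985), ranged from 32.8 to 40.1 CPM (median 36.3) in Parkin KO and from 23.8 to 35.3 CPM (median 26.9) in noninduced hearts, so that noninduced replicates 4 and 5 alone reached the Parkin KO range. Its log2 fold change was 0.35 ± 0.11 (SE, edgeR adjusted p = 0.417), but 0.099 on the log2(FPKM + 1) scale. Reads of Gstp1 can be split with its near-identical neighbour Gstp2, so its count is uncertain. Gstm1, a transferase of the mu class, had medians of 289 CPM in Parkin KO, against 338 CPM in noninduced hearts.

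Neither the regulators of the Nrf2 system nor its best-known targets passed the test. Nfe2l2 ranged from 45.8 to 73.1 CPM (median 49.1) in Parkin KO and from 48.4 to 60.9 CPM (median 53.6) in noninduced hearts, with the highest value in Parkin KO replicate 1 and 3 Parkin KO libraries below every noninduced one. The log2 fold change was -0.0071 ± 0.11 (SE, edgeR adjusted p = 0.983). Keap1 ranged from 77.9 to 109.6 CPM (median 92.3) in Parkin KO and from 66.4 to 95.6 CPM (median 78.3) in noninduced hearts, with a log2 fold change of 0.27 ± 0.11 (SE, edgeR adjusted p = 0.424), or 0.16 without noninduced replicates 1 and 2. Only Parkin KO replicates 3 and 4 were above every noninduced library, and exons of Gm16754 cover 10.9% of the exon bases of Keap1. Nqo1, a quinone reductase that is a classical Nrf2 target, ranged from 37.0 to 57.0 CPM (median 52.6) in Parkin KO and from 38.7 to 57.1 CPM (median 44.2) in noninduced hearts, with a log2 fold change of 0.11 ± 0.12 (SE, edgeR adjusted p = 0.689). Hmox1, the inducible haem oxygenase, ranged from 12.3 to 17.1 CPM (median 14.2) in Parkin KO and from 12.2 to 19.5 CPM (median 14.3) in noninduced hearts, with a log2 fold change of -0.057 ± 0.12 (SE, edgeR adjusted p = 0.864). Macrophages, which degrade haem, are a source of Hmox1 in tissue. The 9 macrophage markers summed to 209 to 344 CPM in Parkin KO hearts and 261 to 338 CPM in noninduced hearts, with 6 of 9 lower in Parkin KO. Cd68 was at -0.43, C1qb at -0.32, C1qc at -0.25 and C1qa at -0.18. Lyz2 (-0.066), Cd163 (-0.017), Csf1r (0.016), Emr1 (0.026) and Mrc1 (0.041) were close to 0. The relation of the summed markers to Hmox1 across libraries missed the threshold (Pearson's r = 0.35, adjusted permutation p = 0.328; Spearman's rho = 0.24, adjusted permutation p = 0.573). The r was 0.66 over 10 libraries without the 2 farthest from the median, 0.13 within Parkin KO and 0.76 within noninduced libraries (n = 6 each, no test).

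Promoter windows of 34 members were available in RefSeq for build GRCm38.p6, from 250 bases before to 50 after each start; Gsta4, Sod3, Hmox1, Gclc, Prdx6 and Gsr were not matched. The core of the antioxidant response element was searched as TGACNNNGC on both strands. It was present in 8 of 34 members (23.5%) and in 14.0% of 27025 genes. These were Gclm, Mgst1, Mt2, Nfe2l2, Prdx1, Sod1, Srxn1 and Txnrd1, of which 4 had estimates above 0, with a median of 0.04 and a range of -0.43 to 0.31. Of these, 6 are shown to let the core and its flanks be compared, in the direction of the gene, with the match in capitals. The windows are at chr2:152105542-152105570 for Srxn1, chr10:82859104-82859132 for Txnrd1, chr3:122245413-122245441 for Gclm, chr4:116685456-116685484 for Prdx1, chr16:90220696-90220724 for Sod1 and, on the minus strand, chr2:75704885-75704913 for Nfe2l2. The Txnrd1 window belongs to a start inside the gene, whose first annotated base is 82833951.
Srxn1: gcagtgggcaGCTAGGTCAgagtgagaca
Txnrd1: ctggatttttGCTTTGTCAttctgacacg
Gclm: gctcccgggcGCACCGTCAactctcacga
Prdx1: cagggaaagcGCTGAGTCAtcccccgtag
Sod1: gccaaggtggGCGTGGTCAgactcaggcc
Nfe2l2: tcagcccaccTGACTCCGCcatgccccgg
Among these 6, Sod1 alone had an unadjusted p under 0.05. A match describes the letters in this window and is not evidence that Nrf2 binds there.

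Mt1 and Mt2, the metallothioneins, bind zinc and copper and are induced by metals through metal response elements. Mt1 ranged from 165 to 320 CPM (median 173) in Parkin KO and from 158 to 271 CPM (median 240) in noninduced hearts. Parkin KO replicate 2 was the highest of all 12 libraries and noninduced replicate 4 the lowest, while the other 5 Parkin KO libraries were below the other 5 noninduced ones. The log2 fold change was -0.20 ± 0.17 (SE, edgeR adjusted p = 0.616); it was -0.39 without Parkin KO replicate 2, the 1 alternative in which its unadjusted p was under 0.05, and -0.12 without noninduced replicates 1 and 3. Mt2 ranged from 14.4 to 31.3 CPM (median 17.97) in Parkin KO and from 13.02 to 57.2 CPM (median 23.8) in noninduced hearts, with a log2 fold change of -0.43 ± 0.30 (SE, edgeR adjusted p = 0.552). The value of 57.2 CPM was that of noninduced replicate 6, and without it the log2 fold change was -0.087. Exons of Gm45774 on the opposite strand cover 73.5% of the exon bases of Mt2, so its count is uncertain.

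Mt1 and Mt2 varied together across the 12 libraries, and they lie close together on chromosome 8. Over 12 libraries their log2 CPM had a Pearson's r of 0.69 (adjusted permutation p = 0.0236) and a Spearman's rho of 0.78 (adjusted permutation p = 0.0209). The r was 0.80 over 10 libraries without noninduced replicates 4 and 6, 0.91 within Parkin KO and 0.53 within noninduced libraries (n = 6 each, no test). The metal response element core was searched as TGCGCNC or TGCACNC on both strands; it was present in 10 of 34 members (29.4%) and 28.2% of all genes, but 3 or more copies were present in 2.27% of genes. The Mt2 promoter had 4 matches, and those of Mt1 and Gclm had 3 each. Both windows are shown, with matches in capitals, because the pair varied together: chr8:94178839-94179118 for Mt1 and chr8:94172368-94172647 for Mt2, plus strand, from 250 bases before the start to 30 after it.
Mt1: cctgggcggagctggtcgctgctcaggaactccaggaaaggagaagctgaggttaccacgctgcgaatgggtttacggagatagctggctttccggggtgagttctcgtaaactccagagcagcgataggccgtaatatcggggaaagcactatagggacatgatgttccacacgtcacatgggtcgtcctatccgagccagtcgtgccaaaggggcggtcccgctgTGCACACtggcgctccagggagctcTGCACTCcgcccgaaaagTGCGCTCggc
Mt2: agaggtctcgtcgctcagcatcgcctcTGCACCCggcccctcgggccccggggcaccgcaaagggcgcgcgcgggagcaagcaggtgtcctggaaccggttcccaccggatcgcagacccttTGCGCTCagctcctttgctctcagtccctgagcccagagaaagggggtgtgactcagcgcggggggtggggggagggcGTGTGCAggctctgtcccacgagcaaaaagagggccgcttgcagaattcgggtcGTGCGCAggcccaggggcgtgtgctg

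Other genes of these pathways, taken from 8 lists, held no edgeR call. Of 15 other Nrf2 targets tested, 10 were above 0 and 5 below, with a median of 0.02. At an unadjusted p under 0.05 there were 2 of 15, where 11.4% of all genes were. Both were lower in Parkin KO, where 5.54% of all genes were: Gstm2, a glutathione transferase, at -0.34, and Ephx1, an epoxide hydrolase, at -0.28. Of 9 partners and repressors of Nrf2, 5 were above 0, and Maff, a small Maf protein that pairs with Nrf2, was at -0.52 and Mafk, another, at -0.22. For the supply of NADPH, 11 of 15 genes were above 0, with a median of 0.12. DESeq2, unlike edgeR, called a gene in each direction here, where it called 0.0766% of all genes. Idh2, which makes NADPH in mitochondria, averaged 1924 ± 127 CPM in Parkin KO, against 1482 ± 173 CPM in noninduced hearts (SD, n = 6 each; log2 fold change 0.38, DESeq2 adjusted p = 0.0336, edgeR adjusted p = 0.417). Mthfd2, a mitochondrial folate enzyme, averaged 4.15 ± 1.33 CPM in Parkin KO, against 8.45 ± 2.85 CPM in noninduced hearts (SD, n = 6 each; log2 fold change -1.02, DESeq2 adjusted p = 0.0339, edgeR adjusted p = 0.417).

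Of 13 further genes of glutathione turnover, 10 were above 0 with a median of 0.17, and 4 were higher in Parkin KO at an unadjusted p under 0.05, where 5.82% of all genes were. Among these, Chac2, which cleaves glutathione, was at 0.43 and Gstt2 at 0.30. Of 11 sources of oxidants, 6 were above 0. Maoa, the monoamine oxidase of the outer mitochondrial membrane, averaged 3.84 ± 0.780 CPM in Parkin KO, against 5.33 ± 0.953 CPM in noninduced hearts (SD, n = 6 each), a log2 fold change of -0.47, and Aifm1, of the intermembrane space, was at 0.27. Of 12 other thiol redox genes, 10 were above 0, with Msrb2, a mitochondrial methionine sulphoxide reductase, at 0.38 and Txndc12 at -0.25. Metal response genes other than Mt1 and Mt2 were mostly below 0, in 6 of 8, with a median of -0.13. Mt3 averaged 0.939 ± 0.574 CPM in Parkin KO, against 2.23 ± 1.51 CPM in noninduced hearts (SD, n = 6 each), a log2 fold change of -1.22, whereas the iron exporter Slc40a1 was at 0.55. Of 10 glucocorticoid targets, a group listed because these hormones also induce metallothioneins, 6 were above 0, with Pdk4 at 0.97 and Sult1a1 at 0.36.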

How the data were processed

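Members and gene lists were chosen with earlier results of these data known. The authors deposited whole-number read counts per gene symbol and a table of FPKM values. Bowtie2, TopHat2 2.0.10, HTSeq and Cufflinks 2.1 with build mm10 are named in the submitters' processing notes; annotation and counting mode were not given in the sources used here. Per the labels' protocols, RNA of the ventricular apex was selected for poly(A) and sequenced single-end without strand; the tissue label says whole heart. Total counts ran from 11610507 to 16884516 per library.

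Groups and replicate numbers came from the labels, and the control columns, headed with a wild-type abbreviation, were matched to noninduced by number. Replicates are labelled as separate samples only, so p-values measure the spread between these samples. No libraries of 1 group agreed within sampling noise. Counts were tested in edgeR 4.0.16 (R 4.3.3) with TMM, filterByExpr and the quasi-likelihood F test on the group term, two-sided, adjusted by the Benjamini-Hochberg method over 13050 genes at 0.05. Standard errors and 95% intervals were derived from the estimate and F, and are approximate. CPM uses TMM-scaled totals. FPKM was tested with limma 3.58.1 on log2(FPKM + 1) and log2(FPKM + 0.1), which understates changes of low genes; 4 genes listed at 0 beside over 1000 counts were left out as failed estimates. DESeq2 1.42.0 was an alternative. Ratios of forms were tested with exact two-sided permutation over 924 splits (scipy 1.17.1), and correlations with 100000 permutations. The code was tested on simulated counts.

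Named members were the 3 of smallest p in each direction plus Sod1, Sod2, Sod3, Prdx3, Txnrd2, Gpx1, Gpx3, Gpx4, Cat, Gclc, Mt1, Mt2, Nqo1, Hmox1, Nfe2l2 and Keap1, and from each list the 2 genes of smallest p. Gene positions and exon overlaps come from GENCODE M21 on GRCm38, which mm10 also names. Counts of the deleted gene are not reported here.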

Additional observations from a re-analysis of the deposited data

Results flagged for a closer look

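Each member was examined within each group of 6 libraries for a library set apart from the others by Dixon's gap ratio. Of 80 groups, 5 had such a library, and chance gives about 1 in 20. Sod1 was at 217 CPM in Parkin KO replicate 6, against 168 to 181 CPM in the other Parkin KO libraries. Gstm1 was at 430.2 CPM in Parkin KO replicate 2, against 268 to 312 CPM in the others of its group. Mt1 was at 320 CPM in Parkin KO replicate 2, against 165 to 211 CPM in the others, and at 158 CPM in noninduced replicate 4, against 229 to 271 CPM. Mt2 was at 57.2 CPM in noninduced replicate 6, while the others of its group had 13.02 to 26.5 CPM; that library also held the highest summed fibroblast markers, 1756 CPM, and the part of this in Mt2 was not tested.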

How the results depend on the processing

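Under all 24 alternatives (other scalings, tests, filters and units, each library left out, a term for Y-linked reads, a replicate block, and 4 sets of libraries left out) no member was called. Leaving out noninduced replicates 2 and 5 or 1 and 2, and the alternatives for the correlations, were chosen after seeing the data. In 24 members the estimate kept its sign under every alternative, and in 15 it did not, with estimates from -0.12 to 0.27; the cause was not tested. The median of mitochondrial members stayed between 0.095 and 0.18 and that of secretory members between -0.49 and -0.30, but the cytosolic median was -0.040 without the libraries with Y-linked reads.

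The count of genes called was 10 with DESeq2 and 1 without noninduced replicates 1 and 3. Leaving out 1 library at a time gave 4 to 12 members and 932 to 2131 genes at an unadjusted p under 0.05, and 0 to 2 ratios of forms that passed. Members at that p numbered 5 without noninduced replicates 1 and 3 (7.49% of all genes) and 4 without the libraries with Y-linked reads (4.71%). They numbered 5 with a term for Y-linked reads (7.82%) and 2 without noninduced replicates 2 and 5 (7.17%). Without noninduced replicates 1 and 2 they numbered 5 (4.77% of all genes). Genes at that p numbered 628 without the libraries with Y-linked reads, 946 without noninduced replicates 2 and 5, and 632 without noninduced replicates 1 and 2. Ratios that passed numbered 0 without noninduced replicates 1 and 3 and 0 without the libraries with Y-linked reads. With 3 against 5 libraries, a ratio standing alone cannot reach the threshold over 9 pairs.

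With DESeq2 size factors Txn2 turned to -0.0029 and Gsr to -0.00084, and with the DESeq2 test to -0.0023 and -0.0033. With limma on log2(FPKM + 1) Txnrd1 turned to 0.014 and Nfe2l2 to 0.00027, and on log2(FPKM + 0.1) Txnrd1 to 0.016. Without noninduced replicates 1 and 3, Prdx1 turned to -0.0055, Gclc to -0.015, Gclm to -0.062, Gstm1 to 0.017 and Nfe2l2 to 3.3e-05, and the correlation of Prdx2 with red cell markers to -0.16. Without the libraries with Y-linked reads the members' median was -0.0071, Prdx3 was -0.013, Prdx1 -0.061, Prdx6 -0.026, Gclc -0.053, Gclm -0.10, Gsta4 -0.040, Gpx7 -0.0071, Gsr -0.037, Mgst1 -0.0089 and Nfe2l2 0.11. With the term for Y-linked reads Prdx6 was -0.010 and Gsr -0.026. Without noninduced replicates 2 and 5 Gsr was -7.8e-05 and Nfe2l2 0.0063. Without noninduced replicates 1 and 2, Prdx1 was -0.018, Gclm -0.045, Gstm1 0.021, Gpx7 -0.047 and Gsr -0.077, and the differences in log2 ratio were 0.045 for Sod2 over Sod1 and 0.061 for Txn2 over Txn1. As FPKM, Prdx3 over Prdx1 differed by -0.023, and Prdx3 followed the oxidative phosphorylation list with r = 0.63, against 0.45 as CPM (adjusted permutation p = 0.0444 and 0.234). With 1 library left out at a time, log2 fold changes ran from -0.032 to 0.041 for Txn2, -0.060 to 0.055 for Gsr, -0.078 to 0.014 for Txnrd1, -0.12 to 0.032 for Nfe2l2, -0.057 to 0.10 for Gclc, -0.047 to 0.095 for Gsta4, -0.041 to 0.11 for Mgst3, -0.019 to 0.051 for Prdx6 and -0.11 to 0.024 for Hmox1, and Prdx3 over Prdx1 from -0.19 to 0.14.

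No clear pairing by replicate number was seen. Deviations of same-numbered libraries correlated from -0.11 to 0.20, over 0.1 in 3 of 6 numbers, and 1 of 6 libraries correlated best with its own number. With the replicate block, 12 members and 1700 genes had an unadjusted p under 0.05, against 9 and 1483 without it, and no member was called. Glrx5 then had the smallest p among members (edgeR unadjusted p = 0.00168). These checks do not settle whether same-numbered libraries share a source. Of the ratios, 0 passed with the block. Txnrd2 over Txnrd1 then had an exact permutation p of 0.0625 by sign changes (adjusted p = 0.281 over 9 pairs). In replicate 2 its log2 count ratio was lower in Parkin KO (-0.823) than in noninduced (-0.807). By sign changes over 6 numbers, a ratio standing alone cannot reach the threshold over 9 pairs.

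At this depth 37 of 39 intervals lay within 1 log2 unit, members at low CPM such as Gpx7, Gpx8 and Prdx4 carry more counting error, and Glrx3 could not be tested. Reads split between near-identical copies or shared with overlapping genes are not resolved.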
